A study of Sus scrofa with 226 samples.

Results

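ADCYAP1-high neurons are the pig sensory neurons of this series that carried high mRNA of ADCYAP1, the gene of the neuropeptide PACAP, and little or none of OSMR, the receptor subunit for oncostatin M. A cell was counted among them when ADCYAP1 (ENSSSCG00000035186) reached 200 CPM (counts of a gene per 1000000 counts of that cell) and OSMR (ENSSSCG00000016851) stayed below 50 CPM. Both limits were met by 58.8% of the neurons of the series, which were 44 neurons at day 2 in culture, 78 at day 1 and 11 at day 3, and 93 neurons of all days fell outside. The comparison made here is day 2 against day 1, within animals.

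The 10 donor animals were wild-type pigs aged 11 to 20 weeks, and neurons dissociated from their cervical, thoracic and lumbar dorsal root ganglia were kept in culture. Each was recorded with a patch pipette, after which the whole cell was drawn into a larger pipette and sequenced by Smart-Seq2, so that each library is 1 neuron with a set of recorded values. The 7 animals that gave at least 2 ADCYAP1-high neurons on both days were 14 to 20 weeks old and gave 3 to 12 such cells each at day 2 and 2 to 23 at day 1. The other animals gave such cells at day 1 only or had 1 cell at day 2, and they add nothing to a difference within animals. All neurons were dissociated and cultured, and no freshly isolated cell was in the series, so both days are days after axotomy. Neurons were picked by hand for recording, and how they were picked on each day is not given in the sources used here.

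PACAP is released from a subset of peptidergic unmyelinated afferents together with substance P, the product of TAC1, and both peptides act on blood vessels, mast cells and neurons of the dorsal horn. Peptidergic nociceptors carry heat and irritant channels such as TRPV1 and TRPA1. Cutting the axon of such a cell, as happens in dissociation, starts a growth programme known from rodents, in which transcription factors such as ATF3 and JUN and growth-associated proteins such as GAP43 are induced. Receptors of the oncostatin M and interleukin-31 pathway mark another set of unmyelinated afferents, which the OSMR limit keeps out.

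The rule used ADCYAP1 and OSMR, so their values describe the choice and were not tested. ADCYAP1 had a median over cells of 2047 CPM at day 2 and 1806 CPM at day 1. The lowest values inside the limit were 214.2, 278 and 281 CPM, and the highest below it among neurons low in OSMR were 170, 158.2 and 154.2 CPM. OSMR was at 0 in 54 neurons of both days together (44.3% of them), the highest values inside its limit were 43.5, 43.02 and 41.97 CPM, and the nearest above it among neurons with ADCYAP1 of at least 200 CPM were 50.3, 63.2 and 71.9 CPM. Only 6 neurons of these days were at or above both limits. Of all 93 neurons outside the rule, 66 had OSMR of at least 50 CPM and 27 had neither gene at its limit.

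**Figure D1:**
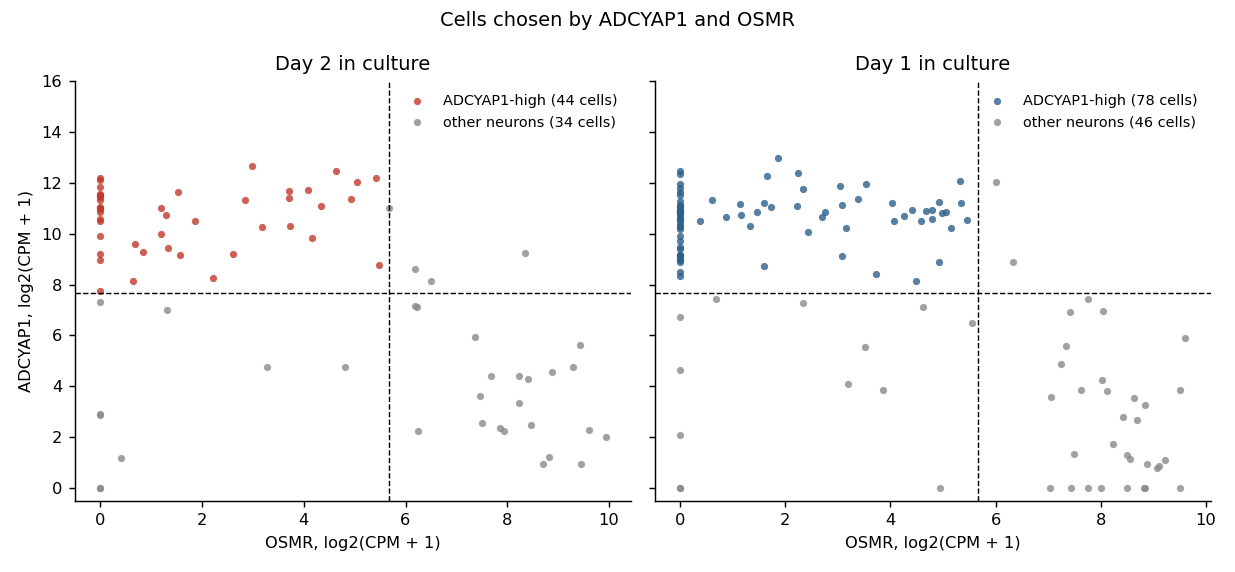
Each point is 1 neuron, with OSMR on the horizontal and ADCYAP1 on the vertical axis, both as log2(CPM + 1), at day 2 on the left and day 1 on the right; dashed lines are the limits of 50 and 200 CPM. The 44 neurons at day 2 and the 78 at day 1 fill the upper left field, and few cells lie in the upper right.

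The second marker given for these cells, TAC1, did not set them apart. TAC1 reached 200 CPM in 94.3% of the ADCYAP1-high neurons of days 2 and 1 and in 90.3% of the neurons outside the rule, where its median was 5965 CPM. Within the ADCYAP1-high neurons its median was 4635 CPM at day 2 and 4688 CPM at day 1. They are therefore called by their rule here and given no cell type name. ADCYAP1-high neurons made up 56.4% of all neurons picked at day 2 and 62.9% at day 1, a share that the picking of cells sets as well.

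Depth and RNA quality were measured first. Total counts per ADCYAP1-high neuron ran from 113649 to 4455869 at day 2 and from 109726 to 3788354 at day 1, with medians of 731472 and 13464.5 genes with a read at day 2, against 702892 and 13726 genes at day 1. The mitochondrial share of counts, averaged per animal, was 3.73% ± 1.73 at day 2 and 4.84% ± 1.93 at day 1 (SD, n = 7 animals), lower at day 2 in 5 of 7, with p = 0.281 when the signs of the 7 differences were flipped in an exact two-sided test. Mean levels of satellite glia, Schwann cell, macrophage, fibroblast and endothelial genes gave adjusted p-values of 0.984 in the same test, adjusted over 9 measures. The summed level of 13 satellite glia genes ran from 203.8 to 1016 CPM over animals at day 2 and from 237 to 1849 CPM at day 1, and 0 of them were at 0 in every cell. The summed level of 18 macrophage genes ran from 232.5 to 645 CPM over animals at day 2 and from 158.1 to 521 CPM at day 1. CX3CR1 of this list and CSPG4 of the mural list were at 0 in every ADCYAP1-high neuron on both days. The other macrophage genes had a read in at least 1 cell on each day.

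No gene passed the threshold between day 2 and day 1 in the ADCYAP1-high neurons. With counts summed per animal and day and the animal as a block, edgeR's quasi-likelihood test called 0 of 14821 genes at an adjusted p under 0.05 in either direction (percent called 0), and the smallest adjusted p was 0.176. At an unadjusted p under 0.05 there were 414 genes higher at day 2 (2.79%) and 290 lower (1.96%), together 4.75% of those tested. DESeq2 on the same sums called 63 genes higher and 23 lower (0.521% of the genes it gave an adjusted p), and limma on means of log2(CPM + 1) called 0, with 655 at an unadjusted p under 0.05. The genes named below are therefore those nearest the threshold, the neuropeptides, receptors and injury genes of these cells, and the members of gene lists, each given as a value that missed it. For scale, 1.61% of the genes tested were higher at day 2 in all 7 animals with both days, and 1.19% were lower in all 7.

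The gene nearest the threshold among those higher at day 2 was LGI1 (ENSSSCG00000010481), which encodes a secreted synaptic protein that binds ADAM22. Its level ran from 8.11 through a median of 8.72 to 9.71 log2 CPM over the 7 sums of day 2, and from 5.999 through 7.59 to 8.94 over the 10 sums of day 1. Every animal with sums on both days was higher at day 2. The groups as a whole overlap because animals 1, 2 and 3, which gave day 1 sums only, had the highest levels of that day. Animal 2 also gave 1 cell at day 2, which is in no sum and had LGI1 at 0 CPM. The log2 fold change was 1.497 ± 0.24 (SE, 2.82-fold), with an adjusted p of 0.176 by edgeR with Benjamini-Hochberg adjustment. Without the animal as a block it was 0.98, with an adjusted p of 0.504 by edgeR, and over all alternatives the adjusted p of LGI1 ran from 2.7e-05 with DESeq2 to 1.

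NUPR1 (ENSSSCG00000040162), a small chromatin protein induced by stress, was similarly placed. It ran from 9.06 through 10.2 to 10.8 log2 CPM at day 2 and from 8.23 through 8.92 to 9.78 at day 1. All 7 animals were higher at day 2, and the groups overlap only between the lowest sum of day 2 and the upper sums of day 1. The log2 fold change was 1.15 ± 0.18 (2.22-fold, adjusted p = 0.176 by edgeR). NUPR1 had a read in 100% of the neurons at day 2, with a median of 902 CPM, and in 94.9% at day 1, with a median of 411 CPM.

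The other genes named at the higher end of day 2 were GMFB, LXN, UCHL3, FLRT3, CRABP2 and CLIC4. GMFB, a regulator of branched actin, ran from 9.28 to 10.9 log2 CPM at day 2 and from 7.46 to 9.48 at day 1, with a log2 fold change of 1.30 ± 0.23. LXN, an inhibitor of carboxypeptidases, gave 1.09 ± 0.20, and UCHL3, a ubiquitin hydrolase, 1.12 ± 0.22. Both were higher at day 2 in 7 of 7 animals. CLIC4, an intracellular chloride channel protein, gave 1.01 ± 0.23 and FLRT3, an adhesion protein of growing axons, 1.67 ± 0.36, which was higher in 6 of 7 animals. CRABP2, which carries retinoic acid to the nucleus, was rare: 3 of its 10 sums at day 1 were at 0 counts, 34.6% of the neurons at day 1 and 59.1% at day 2 had a read, and its level ran from 3.93 to 6.45 log2 CPM at day 2 and up to 4.80 at day 1. Adjusted p-values of these 6 genes ran from 0.318 for GMFB to 0.698 for FLRT3, CRABP2 and CLIC4 (edgeR). DESeq2 called all 8 genes named at this end.

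At the lower end, DGKA (ENSSSCG00000000370), the kinase that turns diacylglycerol into phosphatidic acid, came nearest. Its level ran from 4.29 through 5.17 to 5.82 log2 CPM at day 2 and from 5.78 through 6.81 to 7.46 at day 1. The groups overlap where the highest sums of day 2 meet the lowest of day 1. All 7 animals were lower at day 2, with a log2 fold change of -1.54 ± 0.25 (0.344-fold, adjusted p = 0.176 by edgeR). RGCC, a regulator of the cell cycle, ran from 1.22 through 1.93 to 2.73 log2 CPM at day 2 and from 2.68 through 4.26 to 5.99 at day 1, again with a narrow overlap. Its log2 fold change was -2.30 ± 0.46 (adjusted p = 0.537 by edgeR), lower in 7 of 7 animals.

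CYTB, the mitochondrially encoded cytochrome b, ran from 9.90 to 12.6 log2 CPM at day 2 and from 10.45 to 12.8 at day 1, lower at day 2 in 7 of 7 animals, with a log2 fold change of -0.91 ± 0.23. CHODL, a membrane lectin, gave -1.50 ± 0.37 and NPNT, an integrin ligand of the extracellular matrix, -2.26 ± 0.58, both lower in 7 of 7 animals. FGL2, a fibrinogen-related secreted protein, gave -1.59 ± 0.43 and ATP1B2, a sodium pump subunit that is also on the satellite glia list, -1.02 ± 0.29, each lower in 6 of 7. CXCL10, an interferon-induced chemokine, was listed at 0 in 2 of 7 sums at day 2 and in 2 of 10 at day 1, and reached 4.48 log2 CPM at day 2 and 9.38 at day 1. The adjusted p-values of CYTB, CHODL, NPNT, FGL2, ATP1B2 and CXCL10 lay between 0.698 and 0.992 (edgeR). DESeq2 called 6 of the 8 genes named at this end, all but CYTB and ATP1B2.

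**Figure D2:**
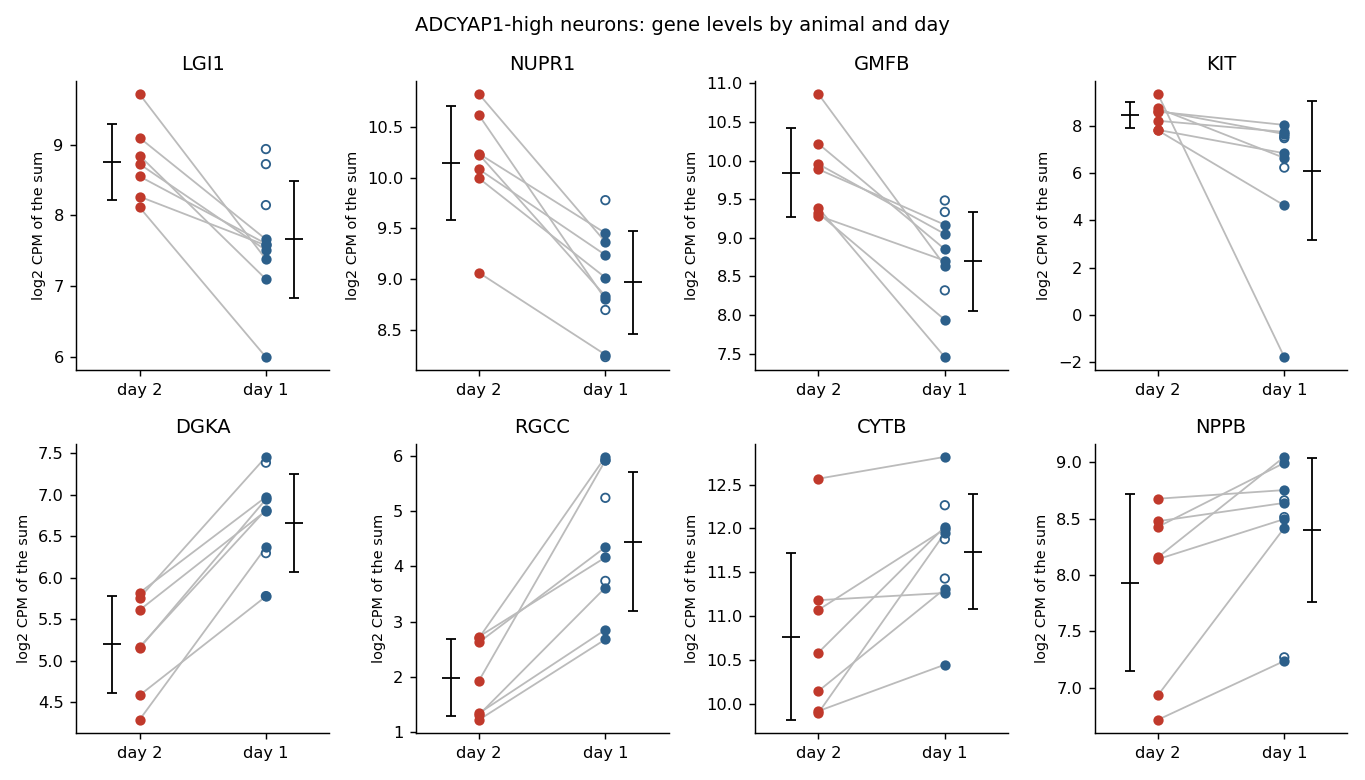
Each point is the log2 CPM of the summed counts of 1 animal, day 2 on the left and day 1 on the right of each panel; lines join the 7 animals with both days, open circles are animals with day 1 only, and bars are the mean ± SD over 7 and 10 sums. LGI1, NUPR1, GMFB and KIT are higher and DGKA, RGCC, CYTB and NPPB lower at day 2 in every joined pair, while the ranges of both days overlap in all 8 panels.

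Among the neuropeptide genes, TAC1 had similar levels on both days. Its level ran from 12.0 through 12.6 to 13.3 log2 CPM at day 2 and from 11.2 through 12.7 to 13.4 at day 1, and the ranges lie almost on top of each other. The log2 fold change was 0.05 ± 0.24, with 3 of 7 animals higher, and its sign turned to between -0.02 and -0.26 under 11 of the alternatives. SCG2, a granin of dense-core vesicles, gave 0.71 ± 0.29, higher in 6 of 7 animals, and the secreted peptide precursor VGF 1.15 ± 0.51, higher in 5 of 7. NPPB, a natriuretic peptide used in itch circuits of the mouse, was at 7.93 ± 0.78 log2 CPM at day 2 and 8.40 ± 0.64 at day 1 (SD, n = 7 and 10 sums) and lower at day 2 in 7 of 7 animals, with a log2 fold change of -0.58 ± 0.21. SST gave -0.97 ± 0.47, GAL -0.45 ± 0.48 and BDNF 0.55 ± 0.60. All of these 7 genes had an adjusted p of 0.998 by edgeR. Leaving ADCYAP1 aside, 2 of the 19 tested genes of neuropeptides and their processing were higher and 1 lower at an unadjusted p under 0.05, and their median log2 fold change was 0.05, against -0.01 over all 14821 genes.

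Among receptors, KIT, the receptor of stem cell factor, was higher at day 2 in 7 of 7 animals. Its level ran from 7.80 through 8.59 to 9.33 log2 CPM at day 2, and at day 1 from 4.63 to 8.03 in the 9 sums with a read, with animal 8 at 0 counts over its 2 cells. The upper sums of day 1 reach into the range of day 2. The log2 fold change was 1.84 ± 0.68, and 1.37 without animal 8, with an adjusted p of 0.998 by edgeR, and between 0.251 and 1 over the alternatives. KIT had a median of 176.6 CPM over cells at day 2 and 54.3 CPM at day 1, and a read in 93.2% of cells at day 2 and 88.5% at day 1.

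The other receptors and sensory channels spread on both sides of 0. TRPV1, the heat and capsaicin channel, gave a log2 fold change of -0.48 ± 0.40, and TRPA1, the irritant channel, -0.40 ± 0.43. The opioid receptor OPRM1 gave -0.35 ± 0.42 and the prokineticin receptor PROKR2 0.03 ± 0.56. PIEZO2, the touch channel, was near the floor, with a read in 38.6% of cells at day 2 and 30.8% at day 1. GNG8, a G protein subunit, gave 1.06 ± 1.17, with 5 of 7 animals higher. TRPA1, PROKR2 and PIEZO2 turned their sign under at least 1 alternative. Of 28 receptors listed for peptidergic C-fibres, 17 could be tested, with a median log2 fold change of 0.04. KIT and TACR1 were higher and GPR149 was lower at an unadjusted p under 0.05. These are 11.8% and 5.88% of the list, against 2.79% and 1.96% of all genes.

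The sodium channels that carry the action potential of nociceptors are SCN9A, SCN10A and SCN11A, and none reached the threshold. SCN9A was at 6.81 ± 0.35 log2 CPM at day 2 and 7.40 ± 0.44 at day 1 (SD, n = 7 and 10 sums), with a log2 fold change of -0.43 ± 0.25. SCN11A gave -0.60 ± 0.35 and SCN10A -0.08 ± 0.35, the sign of which turned under 4 alternatives. Of 10 tested sodium channel genes 8 had a negative fold change, as had 50.4% of all genes tested, and the median was -0.18. In edgeR 0 of the 10 were at an unadjusted p under 0.05. Among 25 potassium channel genes KCNV1, a modulatory subunit, was higher, with a log2 fold change of 1.63 ± 0.49. KCND3, which carries transient current, was lower at -1.56 ± 0.53, and KCNB2, a delayed rectifier, at -1.59 ± 0.69, each at an unadjusted p under 0.05. At that p 4% of the list were higher and 8% lower, against 2.79% and 1.96% of all genes. The median over the potassium channels was -0.004, and over 13 calcium channel genes it was 0.28 with 0 genes at that p.

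Genes of axotomy and regeneration leaned towards day 2. Of 28 tested, leaving OSMR aside, 23 had a positive fold change, as had 49.6% of all genes tested, and their median was 0.49 on the log2 scale, against -0.01 over all genes. FLRT3, STMN4, ATF3, GAP43 and VGF were higher at an unadjusted p under 0.05 (17.9% of the list, against 2.79% of all genes), and 0 were lower. ATF3, the transcription factor most used as a mark of nerve injury, ran from 7.18 through 8.59 to 9.47 log2 CPM at day 2 and from 4.85 through 6.66 to 8.54 at day 1. It was higher in 6 of 7 animals, with a log2 fold change of 1.04 ± 0.39. GAP43, a protein of growth cones, was at 11.3 ± 0.36 log2 CPM at day 2 and 11.1 ± 0.29 at day 1 (SD, n = 7 and 10 sums), with a log2 fold change of 0.34 ± 0.15, higher in 6 of 7. JUN gave 1.31 ± 0.88 and had a read in 59.1% of cells at day 2 and 32.1% at day 1. None of them had an adjusted p below 0.698 by edgeR, and the list had been chosen with earlier results of these data known. Other lists leaned the same way. Of 29 ribosomal protein genes 24 had a positive fold change (median 0.19), as had 10 of 13 cell cycle genes (median 0.50). At an unadjusted p under 0.05 in edgeR, 0 ribosomal protein genes and 1 cell cycle gene were higher.

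Cytoskeletal genes of growing axons gave a like count, with overlapping membership. Of 32 tested, TMSB10, STMN4, TMSB4X, STMN1 and GAP43 were higher and MAPT was lower at an unadjusted p under 0.05. These are 15.6% and 3.13% of the list, against 2.79% and 1.96% of all genes. The median log2 fold change was 0.12. TMSB10, a thymosin that binds actin monomers, gave 0.57 ± 0.17 (6 of 7 animals higher) and TMSB4X 0.36 ± 0.14 (7 of 7). MAPT, which encodes tau, gave -0.53 ± 0.24 (6 of 7 lower). ITGB1, the common beta subunit of laminin and collagen receptors, gave 0.68 ± 0.20 within the matrix and integrin list, of which ITGB8 and LTBP1 were also higher and LAMB1 lower among 23 tested.

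FOS, an immediate early gene, had lower values at day 2. It ran from 1.06 through 5.00 to 6.61 log2 CPM at day 2 and from 3.12 through 6.88 to 8.27 at day 1, lower in 6 of 7 animals. Animal 4 was low on both days, at 3.32 at day 2 and 3.12 at day 1. The log2 fold change was -2.21 ± 0.70, with an adjusted p of 0.998 by edgeR; the range over the alternatives was 0.049 to 1. FOS was the only gene of the 16 tested immediate early genes at an unadjusted p under 0.05 (6.25% lower, against 1.96% of all genes). The list median was -0.04.

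Stress and interferon genes were also read as lists. Of 14 heat shock genes CHORDC1, HSPA8 and CRYAB were higher at an unadjusted p under 0.05 (21.4% of the list, against 2.79% of all genes). A positive fold change was seen in 11 of the 14 (median 0.16), and in 49.6% of all genes tested. CRYAB, a small heat shock protein, gave 2.17 ± 0.74 and was higher in 7 of 7 animals; HSPA8, the constitutive chaperone, gave 0.86 ± 0.25. Of 24 interferon-stimulated genes 20 had a positive fold change, against 49.6% of all genes tested, and the median was 0.40. IFI44, OAS2, IFIT1, MX2, IFIH1 and ISG15 were higher at an unadjusted p under 0.05 (25% of the list, against 2.79% of all genes). ISG15, a ubiquitin-like modifier, ran from 7.36 through 10.04 to 11.9 log2 CPM at day 2 and from 4.98 through 8.43 to 10.4 at day 1, with a spread over animals wider than the difference of the medians. Of 25 genes of the unfolded protein and integrated stress response NUPR1 was higher and the chaperone HSPA5 lower (-0.62 ± 0.27), with a median of 0.01. At an unadjusted p under 0.05 these are 4% each way, against 2.79% and 1.96% of all genes. Of 12 p53 and apoptosis genes FAS was higher at that p (8.33% of the list), and CDKN1A gave 0.50 ± 0.38.

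The mitochondrially encoded genes leaned the other way. Of 13 tested, 10 had a negative fold change, as had 50.4% of all genes, with a median of -0.27. ATP8, ATP6, ND4 and CYTB were lower at an unadjusted p under 0.05 (30.8% of the list, against 1.96% of all genes). ATP6, a subunit of the ATP synthase, gave -0.72 ± 0.22 and was lower in 5 of 7 animals. It was the 1 gene that edgeR called when neurons with a mitochondrial share above 10% were left out. ATP6 is itself counted in that share, so this call is no separate support for it. The mitochondrial share of counts per animal was itself 3.73% at day 2 and 4.84% at day 1, with medians over cells of 2.41% and 4.76%. Its part in these values was not tested. The 27 nuclear genes of oxidative phosphorylation had a median of 0.04 and 0 genes at an unadjusted p under 0.05, as had the 29 ribosomal protein genes with a median of 0.19.

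Markers of cells around the neuron and of other sensory neurons were read beside these. At an unadjusted p under 0.05, APOE (-1.73 ± 0.56) and ATP1B2 were lower among 12 satellite glia genes (16.7%, median -0.23). APOD was lower among 5 fibroblast genes (20%), against 1.96% of all genes. CNP (0.73 ± 0.33) and GAP43 were higher among 12 Schwann cell genes (16.7%, against 2.79% of all genes). Of 14 macrophage genes 0 were at that p. Among markers of other sensory neurons, which here exclude OSMR, NPPB and IL31RA (-1.23 ± 0.44) were lower of 14 tested (14.3%, against 1.96% of all genes), with a median of -0.55. In the mouse NPPB, IL31RA and SST mark the afferents that carry OSMR, the gene the rule used.

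**Figure D3:**
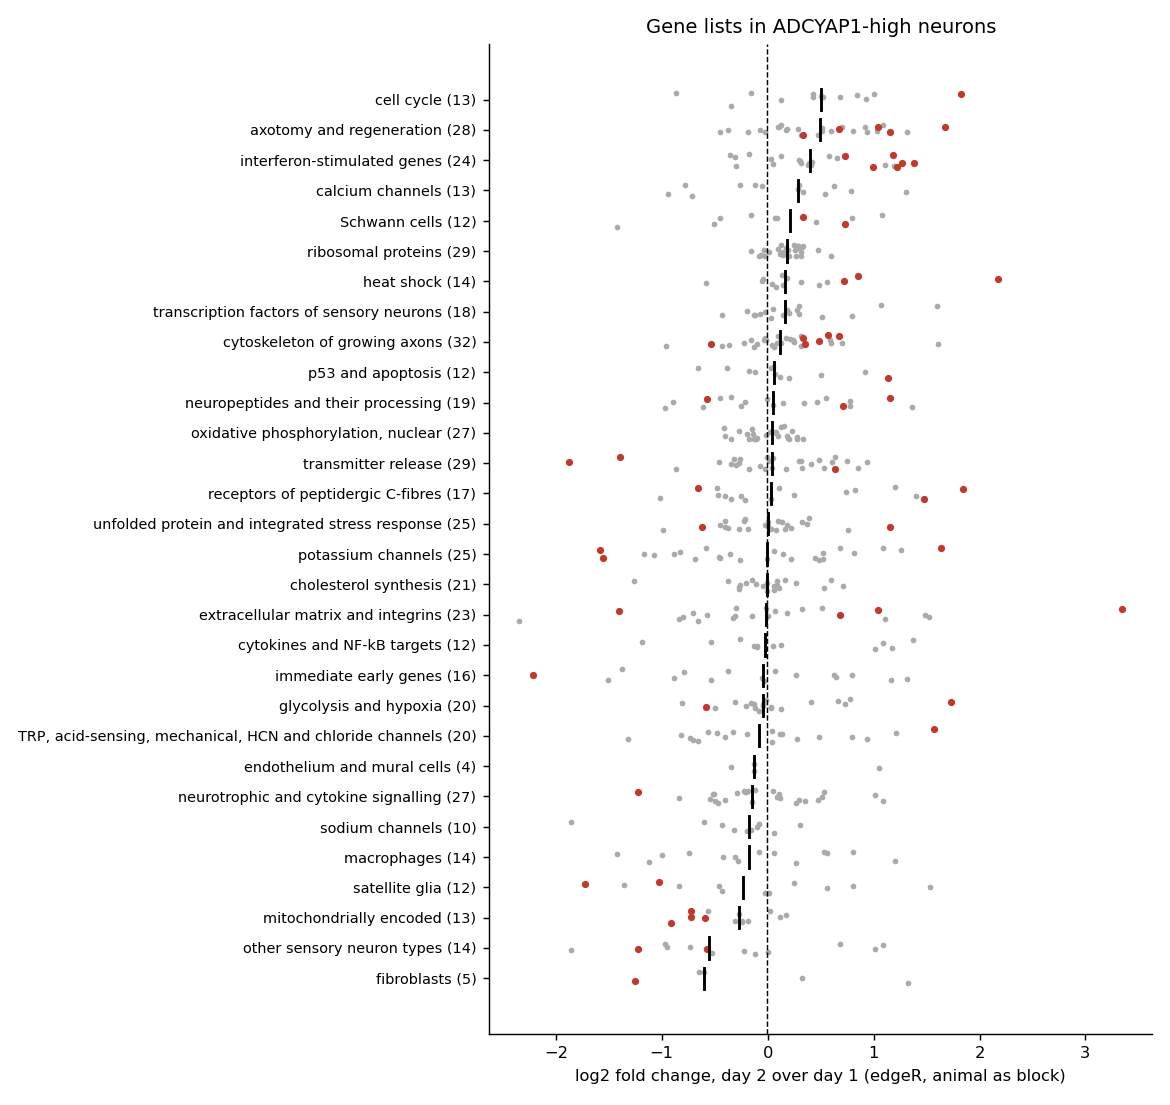
Each point is the log2 fold change, day 2 over day 1, of 1 gene of a list in the ADCYAP1-high neurons; red points have an unadjusted p under 0.05, black bars are list medians, the dashed line is the median of all 14821 genes, and the number tested stands after each name. Cell cycle, axotomy and interferon genes have medians of 0.50, 0.49 and 0.40, mitochondrially encoded genes -0.27, and no point passed edgeR's adjusted threshold.

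The recorded parameters were compared next, as the mean over the ADCYAP1-high neurons of an animal on each day in the 7 animals with both days. The cell table states no units, so values are given as deposited. None of 412 parameters passed after adjustment in the exact sign-flip test, 2-sided over animals, whose smallest possible p with 7 animals is 0.0156. At an unadjusted p under 0.05 there were 17 (4.13%; percent called after adjustment 0), and the smallest adjusted p was 0.411. Leaving out 1 animal at a time put the 17 between 0 without animal 5 and 52 without animal 7. Most of the 412 are repeated columns of pulse trains. Among the 40 other parameters 9 were at an unadjusted p under 0.05 (22.5%), and with adjustment over these 40 the smallest adjusted p of the exact test was 0.208.

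By their column names, 7 of these 9 parameters were read as concerning injected current and the shape of the spike. The others are forms of a score that the cell table does not define. Rheobase, the smallest current step that evokes an action potential, averaged 167.2 ± 63.8 at day 2 and 82.3 ± 31.97 at day 1 (SD, n = 7 animals). Over animals it ran from 63.3 through 176.7 to 252 at day 2 and from 27.5 through 94.1 to 120 at day 1. It was higher at day 2 in 6 of 7 animals, and animal 10 was the exception with 63.3 at day 2 and 120 at day 1. The 3 animals with day 1 only had 130, 150.6 and 81.7 on that day, within the range of day 2. The difference was 84.9 ± 85.9 (SD), with p = 0.0469 in the exact test and an adjusted p of 0.411.

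Input resistance, which sets how far a given current moves the membrane, averaged 0.229 ± 0.064 at day 2 and 0.416 ± 0.171 at day 1. It ran from 0.132 through 0.223 to 0.342 at day 2 and from 0.260 through 0.328 to 0.745 at day 1, lower in 6 of 7 animals with animal 10 again apart (exact p = 0.0312). The 3 animals with day 1 only, which are not part of the test, had 0.122, 0.201 and 0.245 at day 1, so that the whole range of day 1 encloses that of day 2. The column pA_threshold, which the cell table does not define, averaged 104.98 ± 47.2 at day 2 and 42.6 ± 38.02 at day 1. Over single cells it went down to -380 at day 2 and -485 at day 1. The subthreshold slope averaged 1.85 ± 0.55 at day 2 and 1.02 ± 0.43 at day 1. Both pA_threshold and the subthreshold slope were higher in 6 of 7 animals (exact p = 0.0469), and animal 10 was the exception in both. How these columns were derived is not given in the cell table, and rheobase, input resistance, pA_threshold and the slope may not be separate observations.

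The steepest slope of the spike was smaller at day 2 in most animals. The maximal slope averaged 139.2 ± 8.82 at day 2 and 163.9 ± 19.9 at day 1 on the raw trace, and 82.1 ± 3.00 at day 2 and 89.4 ± 5.29 at day 1 on the smoothed one. Both were lower in 6 of 7 animals (exact p = 0.0312), with animal 8 the exception. The lowest point of the afterhyperpolarisation, Min_AHP, was less negative, at -71.7 ± 2.12 at day 2 and -76.1 ± 3.22 at day 1, higher in 6 of 7 animals with animal 4 the exception (exact p = 0.0312). The duration of the action potential, APD, averaged 2.92 at day 2 and 2.82 at day 1, and its sign depended on the summary used. The columns AHP_new and Shoulder were lower at day 2. Leaving out each animal, their day differences ran from -17.5 to -8.21 and from -2.57 to -1.58. The exceptions were animal 10 for AHP_new (46.4 at day 2, 36.7 at day 1) and animal 8 for Shoulder (1.80 at day 2, 1.25 at day 1). Neither column was at an unadjusted p under 0.05 in the exact test.

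The score Sinusscore_new, which the cell table does not define, averaged 0.462 ± 0.097 at day 2 and 0.268 ± 0.105 at day 1, and its older form -13.9 ± 2.92 at day 2 and -7.13 ± 4.65 at day 1. Each differed in the same direction in 6 of 7 animals (exact p = 0.0312), with animal 10 the exception. The remaining parameters named by the rule were 2 pulse-train columns. ADS_TTP_Pulse5 averaged 0.092 ± 0.079 at day 2 and 0.023 ± 0.049 at day 1, and ADS_RMP_Pulse31 -1.59 ± 1.11 at day 2 and -0.05 ± 1.72 at day 1. In the trains as a whole, 75 of 75 columns of ADS_RT_ABS had a positive difference, 72 of 74 of ADS_TTP_Pulse had one, and 74 of 75 of ADS_RMP_Pulse had a negative one; columns of a train come from the same recording and are not separate observations.

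Cell size was read beside these values. The soma diameter averaged 38.1 ± 2.08 at day 2 and 33.1 ± 6.30 at day 1, larger at day 2 in 6 of 7 animals (exact p = 0.109), with animal 4 the exception at 37.1 at day 2 and 45.4 at day 1. Membrane capacitance, in the column cslow, averaged 58.2 at day 2 and 59.7 at day 1, and turned its sign when animal 4 was left out. The part of cell size in rheobase and input resistance was not tested. The number of spikes in the column for 20 Hz stimulation averaged 18.9 at day 2 and 18.9 at day 1, but 88.6% of neurons at day 2 and 83.1% at day 1 stood at its highest value of 20, where no higher value can be seen. Animals went both ways, with 17.3 at day 2 and 19.2 at day 1 in animal 9 and 17.7 at day 2 and 16 at day 1 in animal 10.

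**Figure D4:**
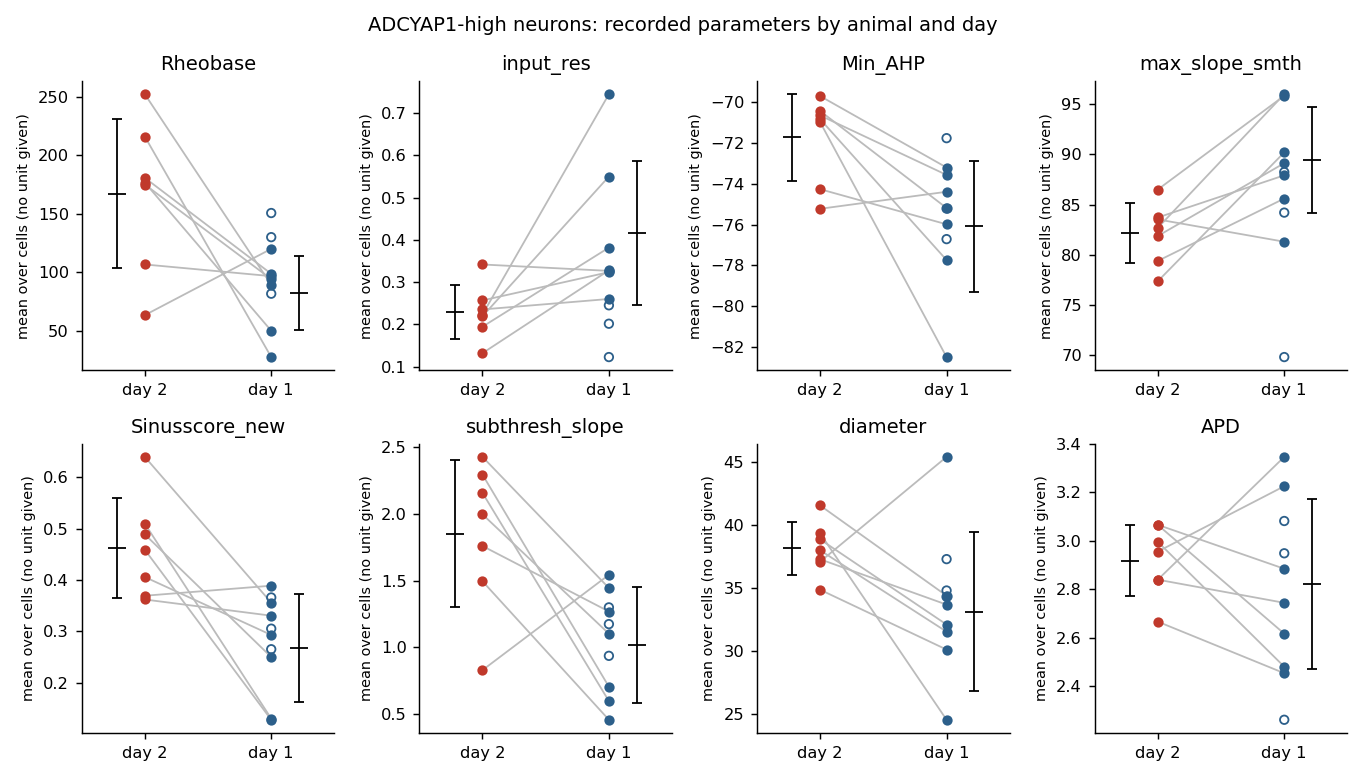
Each point is the mean of a recorded parameter over the ADCYAP1-high neurons of 1 animal, day 2 on the left and day 1 on the right, in the units of the cell table; lines join the 7 animals with both days, open circles are animals with day 1 only, and bars are the mean ± SD over the 7 joined animals. Rheobase, Sinusscore_new and subthresh_slope are higher and input_res and max_slope_smth lower at day 2 in 6 of 7 animals; APD shows no such order.

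The day difference was then set against that of the neurons outside the rule, 34 at day 2 and 46 at day 1. One edgeR fit with an interaction of day and class called 0 of 17039 genes at an adjusted p under 0.05 (percent called 0), with 617 (3.62%) at an unadjusted p under 0.05 and a smallest adjusted p of 0.510. DESeq2 called 3 genes in the same design, all with a more positive day difference in ADCYAP1-high neurons: LGI1, RASL11A, a small GTPase, and TRPC5, a cation channel.

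LGI1 was the gene with the smallest p. Beside its log2 fold change of 1.497 ± 0.24 in the ADCYAP1-high neurons, it gave -0.34 ± 0.24 in the neurons outside the rule, where its level ran from 7.63 to 9.44 log2 CPM at day 2 and from 8.23 to 9.78 at day 1. The difference of both was 1.95 ± 0.37, with an unadjusted p of 3.0e-05 and an adjusted p of 0.510 by edgeR. Sums of both classes were scaled separately for these levels. The day differences of the classes also rest on partly different animals. Sums on both days came from animals 4 to 10 in the ADCYAP1-high neurons, and from animals 1, 2, 4, 5, 6, 7 and 9 in the others.

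Other named genes also had a difference between the classes at an unadjusted p under 0.05 in edgeR, as had 3.62% of all genes tested. It was positive (ADCYAP1-high minus other neurons) for GMFB (1.18 ± 0.39), LXN (1.10 ± 0.35), UCHL3 (0.74 ± 0.31) and SCG2 (0.83 ± 0.39). GAP43 (0.83 ± 0.37), ATF3 (1.32 ± 0.62), GNG8 (3.63 ± 1.48) and ATP1B2 (1.81 ± 0.82) were positive too, and SST (-1.47 ± 0.55) was negative. LGI1, GMFB, LXN, UCHL3 and ATP1B2 had been named for a small p of the day difference in these same ADCYAP1-high sums. That day difference is part of the class difference, so their class values are no separate support. ATF3 gave 1.04 ± 0.39 in the ADCYAP1-high neurons and -0.17 ± 0.43 in the other neurons. GAP43 gave 0.34 ± 0.15 in the ADCYAP1-high neurons and -0.38 ± 0.34 in the others. For GNG8 the values were 1.06 ± 1.17 in the ADCYAP1-high neurons and -2.54 ± 0.73 in the others. ATP1B2 was negative in both classes, at -1.02 ± 0.29 in the ADCYAP1-high neurons and -2.62 ± 0.99 in the others. SST was at -0.97 ± 0.47 in the ADCYAP1-high neurons and 0.62 ± 0.26 in the others. None passed the adjustment. NUPR1, DGKA, RGCC and FOS had the same sign in both classes, with a difference for NUPR1 of 0.61 ± 0.76 and for DGKA of -0.78 ± 0.51. A p that misses the threshold does not show that these genes behaved alike in both classes.

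**Figure D5:**
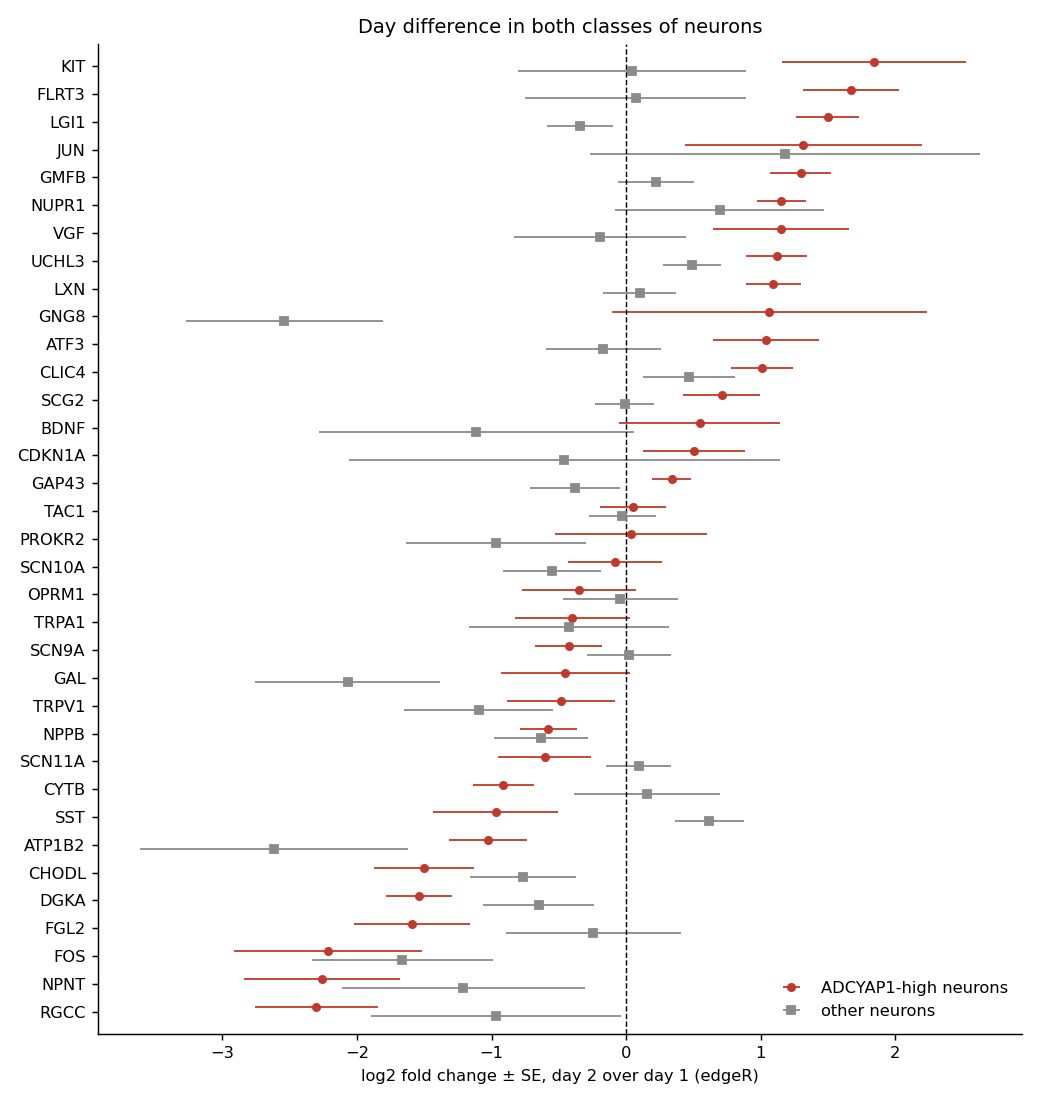
Points are the log2 fold change, day 2 over day 1, with the SE as a bar, of each named gene tested in both classes, circles for ADCYAP1-high neurons and squares for the other neurons. LGI1 lies at 1.497 in the ADCYAP1-high neurons and at -0.34 in the others, and the SE bars of the other neurons are often the longer ones.

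For the recorded parameters 5 animals had at least 2 measured cells of both classes on both days, so the exact test cannot go below p = 0.0625 and no parameter could pass. Of 412 differences between the classes 44.7% stood at that smallest p, with an adjusted p of 0.140. They lay mostly in the pulse trains. The day difference was more positive in the ADCYAP1-high neurons in every animal for 73 of 74 columns of ADS_TTP_Pulse. It was more negative in every animal for 54 columns of ADS_Peak_Pulse and 46 of ADS_Slope_Pulse. These are signed differences between the classes. Within the ADCYAP1-high neurons, 29 columns of ADS_Peak_Pulse had a positive and 45 a negative day difference (median p of the exact test 0.914). For ADS_Slope_Pulse 54 were positive and 20 negative (median p of the exact test 0.664). In the neurons outside the rule ADS_Peak_Pulse5 averaged -0.011 at day 2 and -2.91 at day 1, and ADS_Slope_Pulse5 0.990 at day 2 and 0.963 at day 1. Both were higher at day 2 in 5 of 5 animals of those neurons. In ADS_TTP_Pulse5 those neurons averaged 0.122 at day 2 and 0.584 at day 1 over 5 animals, against 0.092 and 0.023 in the ADCYAP1-high neurons over 7. Outside the trains it held for the action potential threshold, with a day difference of 3.91 in ADCYAP1-high neurons and -0.85 in the others, higher in 5 of 5 animals. It also held for the columns Delta.ind.time (0.126 in ADCYAP1-high neurons and -0.565 in the others, higher in 5 of 5) and Delta.I.Initial (-0.036 in ADCYAP1-high neurons and 0.122 in the others, lower in 5 of 5). Input resistance had a day difference of -0.199 in the ADCYAP1-high neurons of these animals and 0.101 in the others (-0.300 ± 0.220 between them, SD, exact p = 0.125). The count at 20 Hz averaged 18.9 on both days in the ADCYAP1-high neurons, most of which stood at its highest value. In the other neurons it averaged 15.0 at day 2 and 7.98 at day 1, higher in 6 of their 7 animals (exact p = 0.0312, adjusted 0.139). In the 5 animals with both classes the day difference was -0.272 in the ADCYAP1-high neurons and 6.73 in the others (exact p = 0.125).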

How the data were processed

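Counts and recordings of 226 single pig neurons were used, of which the 122 ADCYAP1-high neurons of days 2 and 1 carry the comparison. The authors deposited estimated counts for 30420 genes, not scaled to library size, of which 52.1% of the values above 0 were not whole; 14867 identifiers were paired with a symbol from a reference table of gene names. The submitters' processing notes name bcl2fastq 2.20. The sources used here give neither an aligner nor a counting tool, build or annotation, and genes have no coordinates below. Without molecular identifiers or strand in Smart-Seq2, reads of overlapping genes and near-identical copies could not be told apart. The authors also deposited a cell table of other values with no units, with 420 columns and 269 lines, of which 43 lines belong to no sample used here. It names the animal of each cell, and age and day in it differed from the titles in 0 cells.

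Estimated counts were summed per animal and day over at least 2 cells and rounded, giving 7 sums at day 2 and 10 at day 1 with 609376 to 26354996 counts; total counts per cell are in the report, and intervals from them would cover counting error only. The test was that of edgeR 4.0.16 in R 4.3.3 (TMM, filterByExpr, quasi-likelihood test, animal as block, Benjamini-Hochberg over all genes, threshold 0.05), with DESeq2 1.42.0 and limma 3.58.1 (pseudocount 1) as alternatives; log2 CPM values use a prior count of 2. Both days of an animal come from that animal, which pairs the sums. With this pairing, p-values measure how the day difference varies from animal to animal, which includes the sampling of cells. The spread of levels between animals is not what they measure. Recorded parameters were those measured in at least 70% of the ADCYAP1-high neurons, compared with exact two-sided sign-flip tests (Python 3.11.15, numpy 2.4.6). The scripts were tested on simulated data.

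Genes were named by a rule: called genes, otherwise the 8 genes per direction with the smallest p that had a symbol, averaged over 4 log2 CPM and had at most 1 animal against the direction; a fixed set of genes of these neurons always, of which CALCB, P2RX3 and SOX11 were not among the genes tested and 1 is not reported here; and members of lists that were called. Parameters were all that passed, otherwise the 8 with the largest share of animals in 1 direction; the other parameters, and list members named for an unadjusted p under 0.05, were chosen after their values were seen. The ADCYAP1-high neurons and the 30 gene lists were chosen with earlier results of these data known. Cells were picked singly, so no doublet caller was run; the highest correlation between any pair of ADCYAP1-high neurons was 0.907, so no library looked like a copy. The cells lie in 4 unbroken runs of cell numbers, and animals 7 and 8 have their days in different runs. Alternatives were other limits for ADCYAP1 and OSMR, cell numbers, scalings, filters, tools and leaving out each animal.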

Additional observations from a re-analysis of the deposited data

Results flagged for a closer look

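In 9 of 110 groups of sums or animal means 1 sample stood apart from the others by Dixon's test at the 95% level, of which chance gives about 1 in 20. Animal 8 at day 1, with 2 cells, was at 0 counts for BDNF and KIT, which is -1.79 log2 CPM with the prior count, where the nearest other sums were at 3.04 and 4.63. Animal 8 at day 2, with 3 cells, was at 0 counts (-1.79 log2 CPM) for PIEZO2, against 1.31 in the nearest sum. Animal 6 at day 2, with 4 cells, was high for CLIC4 at 12.5 log2 CPM (nearest 10.9) and UCHL3 at 10.7 (nearest 9.46) and low for SCN11A at 3.68 (nearest 5.61). At day 1 animal 4 was low for FOS at 3.12 log2 CPM (nearest 5.92) and animal 1 for GAL at 4.73 (nearest 8.08). In the recordings animal 10 was apart at day 2 with a raw maximal slope of 157.5 (nearest 142.5).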

How the results depend on the processing

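Over the alternatives, edgeR called 0 genes between the days in all but 2 fits. With no filter on low counts it called 16 (12 higher, 4 lower). Without neurons above a mitochondrial share of 10%, a limit chosen after seeing the data, it called 1, ATP6, which is itself counted in that share. DESeq2 called 86 of the 16518 genes it gave an adjusted p, and the cause of the gap between the tools was not tested. Without the animal as a block edgeR also called 0, with 1017 genes at an unadjusted p under 0.05, and leaving out each animal gave 0 to 0. In the comparison with the other neurons edgeR called 13 genes with no filter and DESeq2 3, and leaving out each animal gave 0 to 0. The recorded parameters that passed numbered 0 under every alternative run, 0 to 0 leaving out each animal, and without the block 18 were at an unadjusted p under 0.05, with a smallest adjusted p of 0.233 in an exact permutation test. Of the 38 named genes 30 kept their direction throughout, as did 14 of the 17 named parameters.

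The direction of the others turned as follows, for genes as log2 fold change. Without the block, TAC1 was -0.019, GAL 0.093 and PIEZO2 -0.50. With limma, TAC1 was -0.26, SST 0.0025 and PROKR2 -0.47. With cells scaled to the same total TAC1 was -0.21 and PROKR2 -0.23, and with sums of at least 1 cell TAC1 was -0.24 and PROKR2 -0.49. With an ADCYAP1 limit of 400 CPM SCN10A was 0.032, with an OSMR limit of 10 CPM TRPA1 was 0.30, and with day 3 in the fit TAC1 was -0.018. Leaving out each animal, TAC1 ran from -0.11 to 0.21, PROKR2 from -0.36 to 0.48 and SCN10A from -0.28 to 0.11. Of the alternatives chosen after seeing the data, neurons with at least 8000 genes gave TAC1 -0.071, BDNF -0.072, TRPA1 0.19 and PROKR2 -0.30, a mitochondrial share of at most 10% gave TAC1 -0.082 and PROKR2 -0.78, and leaving out animals 7 and 8 gave TAC1 -0.085. Of the parameters, the day difference of APD was -0.011 with medians, -0.087 with at least 1 cell and -0.012 with an ADCYAP1 limit of 100 CPM. That of the 20 Hz count was 0 with medians and -0.065 with at least 8000 genes, and ran from -0.226 to 0.373 leaving out each animal, where that of cslow ran from -5.69 to 5.30.

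Each difference rests on 7 animals and on sums of as few as 2 cells. CRABP2, CXCL10, JUN, BDNF, KIT and PIEZO2 had sums at 0 counts, and their fold changes depend on the prior count. The exact test of recorded parameters cannot go below p = 0.0156 with 7 animals. How cells were picked on each day cannot be told apart from the day.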

Other observations

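The 11 ADCYAP1-high neurons at day 3, which came from animals 2, 4 and 7 with 2, 3 and 6 cells, are in none of the comparisons above. Animals 4 and 7 gave sums on all 3 days, shown here as CPM of the summed counts and without a test. LGI1 was at 64.2, 273 and 327 CPM at days 1, 2 and 3 in animal 4, and at 196.4, 417 and 362 CPM in animal 7. NUPR1 was at 459, 1181 and 1345 CPM in animal 4 and at 558, 1004 and 1058 CPM in animal 7. In animals 4 and 7 these 2 genes had higher values at days 2 and 3 than at day 1. LXN was at 776, 1020 and 2115 CPM in animal 4 and at 286, 772 and 784 CPM in animal 7. Animal 2, with 8 cells at day 1 and 2 cells at day 3, went the other way. LGI1 was at 265 and 156.3 CPM at days 1 and 3 in animal 2, NUPR1 at 388 and 103.1 CPM, and LXN at 872 and 662 CPM. The 1 cell of animal 2 at day 2, which is in no sum, had LGI1 at 0, NUPR1 at 18.9 and LXN at 1154 CPM. DGKA was at 185.8 CPM in that cell, against 51.2 CPM at day 1 in animal 2.

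DGKA and KIT differed between animals 4 and 7 at day 3, and RGCC did not. DGKA was at 126.6, 55.4 and 24.3 CPM at days 1, 2 and 3 in animal 4, and at 58.95, 23.4 and 151.9 CPM in animal 7, where day 3 was the highest. RGCC was at 6.12, 2.02 and 0.228 CPM in animal 4 and at 65.1, 3.33 and 3.77 CPM in animal 7, in both below day 1 at days 2 and 3. KIT was at 24.6, 219.4 and 398 CPM in animal 4, and at 230, 291 and 142.9 CPM in animal 7. With so few animals no order over the days can be read for these genes.

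LGI1 was not low in all neurons at day 1. As CPM of the summed counts, with no further scaling, it ran in the ADCYAP1-high neurons from 273 through 417 to 562 over 7 sums at day 2, and from 64.2 through 209.1 to 430 over 10 sums at day 1. In the neurons outside the rule it ran from 124.4 through 407 to 661 over 8 sums at day 2 and from 297 through 545 to 815 over 8 sums at day 1. The ADCYAP1-high neurons of animals 4 to 10, the 7 that gave the day difference, lay between 64.2 and 214.4 CPM at day 1, below every other sum of that day in either class. This reading of LGI1 was chosen after its values were seen.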
